A study of Mus musculus with 6 samples.

Results

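The genes described are 7 transcription factors and cofactors of basal and myoepithelial cells, Trp63, Snai2, Bcl11b, Myocd, Mkl1, Mkl2 and Srf, taken by symbol from the 51826 genes counted in 6 RNA-seq libraries. The libraries came from mammary basal cells of pubertal mice (strain C57B6/N, genotype SMAcreERT2/N1ICD), which were sorted into GFPpos and GFPneg cells. Both groups carry a tamoxifen-inducible Cre driven by the smooth muscle actin promoter, which is also active in vascular smooth muscle, together with an allele for the active intracellular domain of Notch1. Both groups received tamoxifen once, at postnatal day 21, and were isolated 72 hours later at day 24. Each of the 3 GFPpos libraries shares a pool of 2 to 3 mice with the GFPneg library of the same number, so that the libraries form 3 pairs. What drives GFP is not stated in the labels, and cells that lack the Notch1 allele were not analysed here. By its title the series concerns a switch of cell fate under active Notch, and setting GFPpos beside GFPneg cells asks here whether the factors of the basal state differ between them.

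Basal cells form the outer layer of the mammary duct. They carry an epithelial programme of keratins and attachment to the basement membrane, for which p63, the product of Trp63, is known as a master regulator, and a contractile programme shared with smooth muscle. The contractile programme is driven by SRF, which binds a DNA element named the CArG box and is activated by the coactivators myocardin (Myocd), MRTF-A (Mkl1) and MRTF-B (Mkl2). The MRTF proteins are held in the cytoplasm by monomeric actin, so that they are regulated by location as well as by amount.

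Levels are given as CPM, counts scaled by a library's effective size (gene counts times the TMM factor). GFPneg replicate 1 stood apart from the other libraries. It held 611465 gene counts against 9912610 to 16043492 in the others, 69.2% of them in 5 abundant noncoding features (22.7% to 34.7% in the others), and 1 count in it equals 3.28 CPM, against 0.0513 to 0.0911 CPM elsewhere. Its correlation with the other libraries (Pearson's r across genes) was 0.616 to 0.651, against 0.803 to 0.928 among the others. The TMM factor of GFPneg replicate 1 was 0.5015, against 1.049 to 1.224 in the others, which raises its CPM relative to theirs. Its levels, and the directions seen in pair 1, can therefore depend on this factor as well as on counting error. Of the 10 basal cell markers, all were tested and none was at 0 in any library, and their summed level was 6531 to 7802 CPM in GFPpos and 8390 to 13650 CPM in GFPneg libraries. The 12 luminal markers summed to 847 to 1167 CPM in GFPpos and 384 to 794 CPM in GFPneg libraries. The 8 Schwann cell and neural markers summed to 12.2 to 36.6 CPM in GFPpos and 55.5 to 889 CPM in GFPneg libraries, with the highest sum in GFPneg replicate 1. Notch1, whose intracellular part the allele encodes, had 506, 459 and 423 CPM in GFPpos against 105, 177 and 267 CPM in GFPneg libraries, so that the labels and the gene's level go together, although the difference did not pass with 6 libraries (log2 fold change 1.32, SE 0.41, edgeR adjusted p = 0.625). It passed in pairs 2 and 3 with the pair as a term (1.04, SE 0.32, edgeR adjusted p = 0.0350), as did 3.92% of all genes. Results that rest on GFPneg replicate 1 are given with and without it. In bulk libraries, fewer cells of a type and less RNA per cell cannot be told apart.

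Of the 7 members, Myocd had the widest difference, with a mean of 13.7 ± 9.49 CPM in GFPpos cells, against 1.71 ± 1.83 CPM in GFPneg cells (SD, n = 3 each), 8.01-fold higher in GFPpos cells. Snai2 averaged 38.7 ± 13.0 CPM in GFPpos cells, against 77.6 ± 66.8 CPM in GFPneg cells, a ratio of 0.499. Trp63 averaged 157 ± 39.1 CPM in GFPpos cells, against 241 ± 66.3 CPM in GFPneg cells, a ratio of 0.652. For Snai2, as for Bcl11b, Mkl1, Mkl2 and Srf, the means differed by less than the larger SD of both groups. With all 6 libraries 0 of the 7 members passed the quasi-likelihood test of edgeR at an adjusted p (Benjamini-Hochberg) of 0.05, where 0.0649% of the 13873 genes tested did (0.0577% higher and 0.00721% lower). An unadjusted value under 0.05 in the same fit was reached by 1 of the 7 as higher (Myocd) and 0 as lower, against 2.38% and 2.88% of all genes. Every GFPpos library lay above every GFPneg library for 1 member (9.53% of all genes) and below for 0 (3.63%). The median log2 fold change was -0.12 over the members and 0.15 over all genes. It was negative for 4 of the 7 members and for 42.5% of all genes. With the replicate block (pair as a term) 0.44% of genes passed, and without GFPneg replicate 1 0.602% of 15274 did, again with 0 members. In the block fit of pairs 2 and 3 alone 3.92% of 15346 genes passed, with 1 member among them, Snai2. That last fit has few residual degrees of freedom, so that it depends mainly on the dispersion shared over genes. Without the block the same libraries gave 42 genes called higher and 9 lower. Among them were 0 members and 0 genes of the 8 lists of targets and partners described below.

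**Figure D1:**
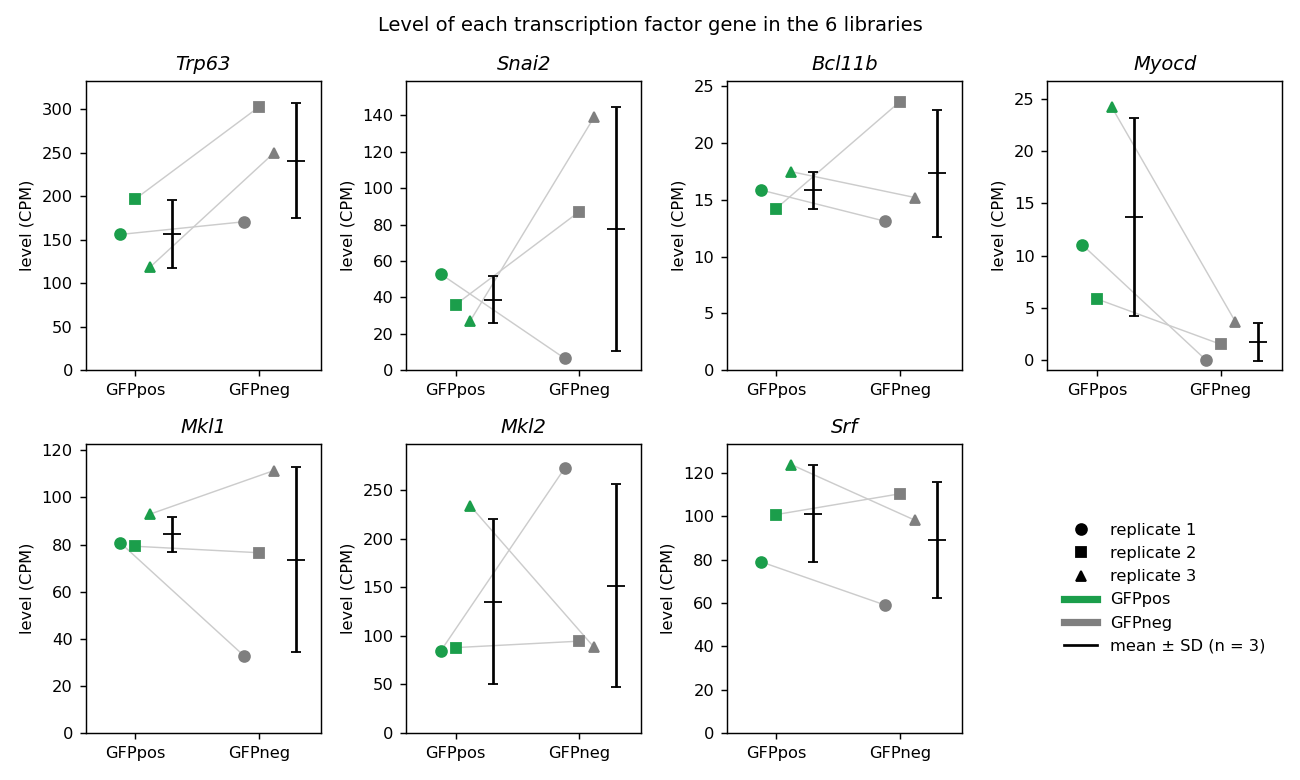
Level of each member in CPM (linear axis) in the 3 GFPpos and 3 GFPneg libraries, with grey lines joining the 2 libraries of a pair and bars giving mean ± SD (n = 3). Every GFPpos library lies above every GFPneg library for Myocd, and for Trp63 and Snai2 GFPneg replicate 1 lies apart from the other GFPneg libraries, at 170.5 and 6.56 CPM.

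Trp63 (ENSMUSG00000022510, chromosome 16, 25683763 to 25892102, plus strand, mm10) encodes p63, which maintains the stem and basal cells of stratified and glandular epithelia. It had 156, 196 and 118 CPM in GFPpos replicates 1, 2 and 3, against 170.5, 302 and 249 CPM in the GFPneg replicates. On TMM scaling each pair was lower in GFPpos cells, as for 8.07% of all genes tested, although the groups overlap through GFPneg replicate 1. The direction of pair 1 depends on that scaling. Trp63 had 1721 of 10549065 gene counts in GFPpos replicate 1 and 52 of 611465 in GFPneg replicate 1, the larger share being in GFPpos cells. Within pairs the GFPpos to GFPneg ratio was 0.915 in pair 1 (95% exact interval 0.694 to 1.23, counting error only), 0.650 in pair 2 (0.620 to 0.681) and 0.475 in pair 3 (0.449 to 0.502). The counting interval of pair 1 spans equality, since GFPneg replicate 1 held 52 Trp63 counts, and those of the other pairs do not. Its log2 fold change was -0.63 (SE 0.41, edgeR adjusted p = 1), and -0.80 (SE 0.28, adjusted p = 0.358) without GFPneg replicate 1. In pairs 2 and 3 with the block it was -0.83 (SE 0.32, adjusted p = 0.166). The counts are per gene, so that the long TAp63 and short ΔNp63 forms, which start at different promoters, were not separated. The epidermis is another epithelium that expresses p63, and its markers stood higher in value in GFPneg libraries. Krt1, a keratin of differentiating epidermis, fell (adjusted p = 0.00637) and stood at 0, 0 and 0.156 CPM in GFPpos and at 121, 66.1 and 16.7 CPM in GFPneg libraries, and the 8 epidermal markers summed to 1.56 to 8.79 CPM and 31.2 to 203 CPM. Flg was at 0 in all 6 libraries and Lor in 5 of them, and the part of epidermal cells in the Trp63 difference was not tested.

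Of 16 genes known to be activated by p63, 14 had negative log2 fold changes (median -0.66, against 0.15 for all genes), and 0 passed edgeR's test in either direction with 6 libraries. Of all genes tested 42.5% were negative. Within pairs 1, 2 and 3 the median log2 ratio of the 16 (CPM plus 1) was 0.07, -0.83 and -1.13, so that pair 1 did not share the direction. Without GFPneg replicate 1 the median fold change was -0.85. Col17a1, a collagen of the hemidesmosome, had 517, 638 and 380 CPM in GFPpos against 1266, 1541 and 1489 CPM in GFPneg libraries, so that the groups did not overlap (log2 fold change -1.48, SE 0.37, adjusted p = 0.332). Dst, which encodes the hemidesmosomal plakin BPAG1 and longer isoforms, had 1339, 1089 and 1480 CPM in GFPpos libraries, against 2335, 1929 and 4215 CPM in GFPneg libraries (adjusted p = 0.704). With the block in pairs 2 and 3, 6 of the 16 fell, among them Dst (adjusted p = 0.0404), Col17a1 (0.000343), Lama3 (0.00239), Fras1 (0.00833) and Jag2 (0.00586), beside 3.92% of all genes called in either direction. Genes called in that fit numbered 386 higher and 216 lower. Without the block 0 of the 16 passed in those pairs. Fras1 encodes a basement membrane protein and Jag2 a Notch ligand.

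Of 8 tested genes for the other p53 family members and known regulators of p63, 5 had positive and 3 negative log2 fold changes (median 0.25) and 0 passed. Trp73, which encodes p73, stood at 3.17, 3.89 and 0.779 CPM in GFPpos and 0, 7.91 and 6.38 CPM in GFPneg libraries. Tfap2a, an AP-2 factor of ectodermal epithelia, had 63.2, 61.0 and 44.6 CPM in GFPpos libraries, against 102, 54.5 and 85.3 CPM in GFPneg libraries (adjusted p = 1). Among 8 tested genes for other basal factors 3 were negative and 0 passed. The 3 included Irx4, an Iroquois homeobox factor, at 22.7, 41.9 and 24.1 CPM in GFPpos against 26.2, 102 and 88.9 CPM in GFPneg libraries (log2 fold change -1.34, SE 0.59, adjusted p = 0.884), and with the block in pairs 2 and 3 Irx4 fell (adjusted p = 0.00115). Tcf7l1, a repressor of Wnt target genes, had 55.8, 62.0 and 68.3 CPM in GFPpos against 151, 85.7 and 111 CPM in GFPneg libraries, without overlap (adjusted p = 1).

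The gene whose profile over the 6 libraries was most like that of Trp63 was the integrin subunit gene Itga6, with a root mean square difference of 0.0939 on the log2 scale after centring each gene, against a median of 0.902 over 7677 candidates. It stood at 324, 393 and 260 CPM in GFPpos and 331, 706 and 559 CPM in GFPneg libraries. Fbn1 (0.139) and Klhl24 (0.146) followed. These 6 points share 3 pools and 2 groups, and the likeness is a description only.

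Snai2 (ENSMUSG00000022676, chromosome 16, 14705852 to 14709385, plus strand) encodes Slug, a zinc finger repressor that in the mammary gland marks basal cells and represses luminal genes. It had 52.8, 36.0 and 27.3 CPM in GFPpos replicates 1, 2 and 3, against 6.56, 87.2 and 139 CPM in the GFPneg replicates. GFPneg replicate 1 was the lowest of all libraries and the other GFPneg libraries the highest, so that the groups overlap with that library and do not overlap without it. Without it, 2 of the 7 members (Trp63 and Snai2) and 13.6% of all genes tested had every GFPpos library below GFPneg replicates 2 and 3. The value of 6.56 CPM rests on 2 counts and has an exact 95% interval of 0.794 to 23.7 CPM, which lies below each GFPpos value. The pair ratio was 8.06 in pair 1 (2.22 to 66.7), 0.413 in pair 2 (0.372 to 0.458) and 0.196 in pair 3 (0.177 to 0.217). Pair 1 therefore went the opposite way from pairs 2 and 3, beyond counting error alone. The interval does not cover other differences of GFPneg replicate 1, in which 7454 genes were detected, against 15322 to 22386 in the others. Whether the direction of pair 1 lies in the cells or in that library was not tested. With 6 libraries the log2 fold change was -1.06 (SE 0.69, edgeR adjusted p = 1), and it was -1.53 (SE 0.35, adjusted p = 0.0904) without GFPneg replicate 1 and -0.39 without GFPneg replicate 3. With the block in pairs 2 and 3 Snai2 fell, with a log2 fold change of -1.79 (SE 0.36, adjusted p = 7.77e-05). Without the block the fold change in the same pairs was -1.81 (SE 0.37, adjusted p = 0.128) and did not pass.

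Snai2 is also expressed by fibroblasts, whose markers stood higher in value in GFPneg libraries. The 10 fibroblast markers summed to 679, 775 and 619 CPM in GFPpos and 1033, 1921 and 2033 CPM in GFPneg libraries. With 6 libraries 7 of the 8 tested had negative fold changes (median log2 -1.63), where 42.5% of all genes were negative, and 0 passed. In GFPneg replicates 2 and 3 most of the sum came from Postn, the matrix protein periostin, which had 324, 199 and 280 CPM in GFPpos against 302, 1152 and 1469 CPM in GFPneg libraries. Without GFPneg replicate 1, Postn fell (edgeR adjusted p = 0.00378), 1 of 8 markers tested, beside 0.602% of all genes. With the block in pairs 2 and 3, Postn and Dcn fell, beside 3.92% of all genes. Without the block Postn alone of the 8 passed in those pairs (adjusted p = 0.0317). Lum was at 0 in all 6 libraries, Dpt was at most 0.311 CPM, and Pdgfra had 5.80, 19.1 and 2.23 CPM in GFPpos against 13.1, 14.8 and 20.2 CPM in GFPneg libraries. The part of fibroblasts in the Snai2 difference was not tested. The profile most like that of Snai2 was that of Clmp (root mean square difference 0.276), followed by Lhfp (0.306) and Mme (0.326), the basal surface peptidase CD10. Mme stood at 131, 116 and 138 CPM in GFPpos and 23.0, 242 and 365 CPM in GFPneg libraries, which repeats the split of GFPneg replicate 1 from the other GFPneg libraries.

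Of 8 tested Snail corepressors and other regulators of the epithelial to mesenchymal transition, 5 had positive and 3 negative log2 fold changes (median 0.42), and 0 passed. Snai1, the closest relative of Snai2, had 3.81, 6.07 and 10.6 CPM in GFPpos against 0, 4.98 and 0.729 CPM in GFPneg libraries (adjusted p = 1). Twist1, a mesenchymal factor, had 21.2, 0.700 and 6.59 CPM in GFPpos against 0, 1.28 and 0.0911 CPM in GFPneg libraries, and its pair 2 was lower in GFPpos cells (adjusted p = 0.839). The corepressor gene Ctbp2 had 51.0 to 75 CPM in GFPpos libraries, against 74.9 to 148 CPM in GFPneg libraries (adjusted p = 1).

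Bcl11b (ENSMUSG00000048251, chromosome 12, 107910403 to 108003602, minus strand) encodes a zinc finger repressor that is needed in T cell and skin development and in the mammary gland is known from quiescent basal stem cells. Its level was 15.9, 14.2 and 17.5 CPM in GFPpos replicates 1, 2 and 3, against 13.1, 23.7 and 15.2 CPM in the GFPneg replicates. The 3 GFPpos values lie within the range of the GFPneg values. Only pair 2 showed a ratio whose counting interval excludes equality, at 0.602 (0.504 to 0.716), while pair 1 (1.21, interval 0.464 to 4.49, from 4 GFPneg counts) and pair 3 (1.15, 0.952 to 1.39) did not. For Bcl11b the log2 fold change was -0.17 (SE 0.73, adjusted p = 1) and took the other sign with library size scaling (0.01) and without GFPneg replicate 2 (0.15), while relative to the median of all genes in the same fit it was negative in each of these (-0.31, -0.30 and -0.17). T lymphocytes express Bcl11b strongly, and their defining markers were at or near 0: Cd3g had 0 counts in every library, Cd3e was at 0 in the GFPneg libraries and at most 0.623 CPM in GFPpos libraries, and Ptprc was at most 4.31 CPM. Of the 8 T cell markers only Lck and Cd247 passed the filter on low counts. Cd247 stood at 12.9, 5.13 and 7.11 CPM in GFPpos against 0, 0.103 and 0 CPM in GFPneg libraries, while Lck had 2.36, 8.87 and 3.32 CPM in GFPpos against 0, 4.06 and 10.02 CPM in GFPneg libraries.

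The paralogue Bcl11a and the subunits of the NuRD complex, a chromatin complex that Bcl11 proteins recruit, were balanced, with 4 positive and 4 negative among 8 tested genes (median -0.05) and 0 called. Bcl11a had 19.2, 10.4 and 21.4 CPM in GFPpos against 3.28, 25.6 and 9.75 CPM in GFPneg libraries. The deacetylase gene Hdac1 had 10.9, 11.1 and 11.0 CPM in GFPpos libraries, against 75.4 CPM in GFPneg replicate 1 and 9.34 and 9.93 CPM in the other GFPneg libraries (adjusted p = 1). The genes closest to Bcl11b in profile were Zfp445 (0.103), Zfp397 (0.107) and Gabarapl1 (0.113).

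Myocd (ENSMUSG00000020542, chromosome 11, 65176561 to 65269989, minus strand) encodes myocardin, the coactivator of SRF in smooth and cardiac muscle, which is nuclear without a signal. It had 11.0, 5.84 and 24.2 CPM in GFPpos replicates 1, 2 and 3 (122, 75 and 467 counts), against 0, 1.49 and 3.64 CPM in the GFPneg replicates (0, 29 and 40 counts). Every GFPpos library lies above every GFPneg library, as for 9.53% of all genes tested, and each pair was higher in value in GFPpos cells (21.5% of genes). The groups are likewise apart against GFPneg replicates 2 and 3 alone (12.6% of genes). The 0 in GFPneg replicate 1 has an exact 95% upper limit of 12.1 CPM, above the values of GFPpos replicates 1 and 2. The exact 95% interval of the ratio in pair 1 begins at 0.900. A difference in pair 1 was therefore not detectable at this depth. The ratio was 3.92 in pair 2 (2.52 to 6.24) and 6.65 in pair 3 (4.81 to 9.43). The fitted log2 fold change of 2.62 (SE 1.08) missed the threshold (edgeR adjusted p = 0.843), and it was 2.45 (SE 0.87, adjusted p = 0.349) without GFPneg replicate 1 and 1.97 (SE 1.49, adjusted p = 1.00) without GFPpos replicate 3. In pairs 2 and 3 with the block it was 2.37 (SE 0.91, adjusted p = 0.153).

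**Figure D2:**
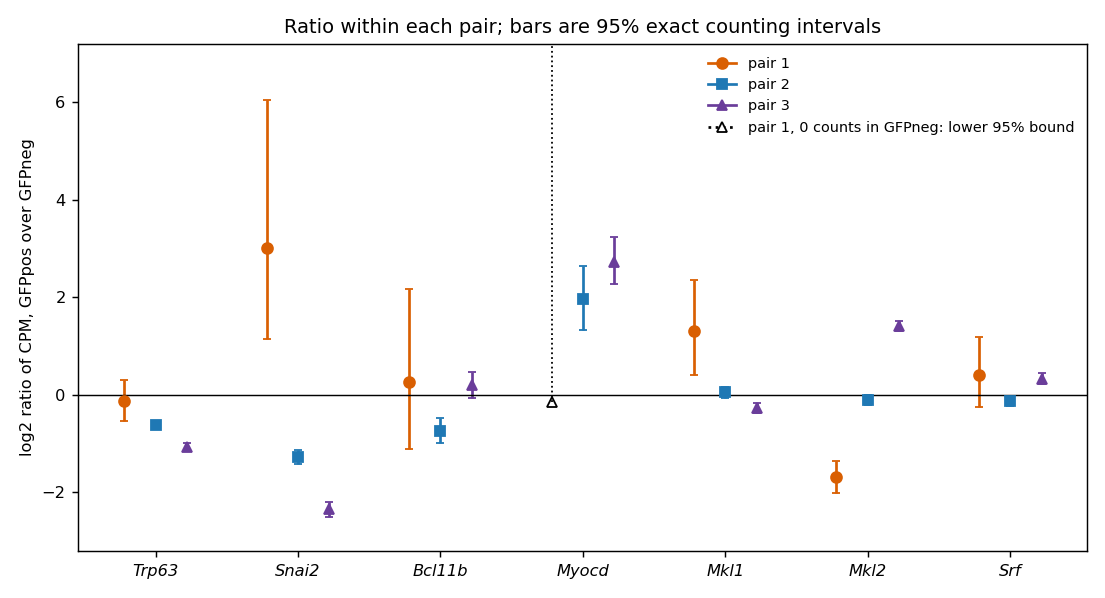
Log2 ratio of the CPM of the GFPpos library to that of the GFPneg library within each pair, with 95% exact intervals that cover counting error only. For Snai2 pair 1 lies above 0 and pairs 2 and 3 below, for Myocd pairs 2 and 3 lie above 0, and the open symbol marks the lower bound of 0.900 for the Myocd ratio of pair 1, where GFPneg replicate 1 had 0 counts.

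Myocardin is also a marker of vascular smooth muscle, and the markers of pericytes and vascular smooth muscle stood higher in value in the same libraries. These 10 markers summed to 433, 294 and 844 CPM in GFPpos and 59.0, 176 and 231 CPM in GFPneg libraries, which puts the 6 libraries in the same order as Myocd. Of the 7 markers tested, 6 had positive log2 fold changes (median 1.82), and 0 passed with 6 libraries. Much of the sum came from Mcam and the receptor gene Notch3, itself a known Notch target. Mcam stood at 193, 120 and 190 CPM in GFPpos and 16.4, 89.2 and 86.8 CPM in GFPneg libraries, and Notch3 at 155, 101 and 279 CPM and 42.6, 21.7 and 61.5 CPM. Rgs5, a marker of pericytes, had 38.8, 23.7 and 164 CPM in GFPpos against 0, 27.2 and 29.5 CPM in GFPneg libraries, so that its pair 2 did not share the direction of Myocd. Kcnj8 was at most 0.779 CPM and Higd1b at most 2.18 CPM in any library. Des, the intermediate filament desmin and a known SRF target, had 15.3, 12.4 and 37.6 CPM in GFPpos against 0, 2.57 and 6.10 CPM in GFPneg libraries, without overlap (log2 fold change 2.58, SE 0.96, adjusted p = 0.752). With the block in pairs 2 and 3, 3 of the 9 markers tested rose, beside 3.92% of all genes called in either direction. They were Des (edgeR adjusted p = 0.0115), Notch3 (2.54e-08) and Cspg4 (0.0184). Without the block 0 of the 9 passed in those pairs. The part of pericytes or vascular smooth muscle in the Myocd difference was not tested.

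**Figure D3:**
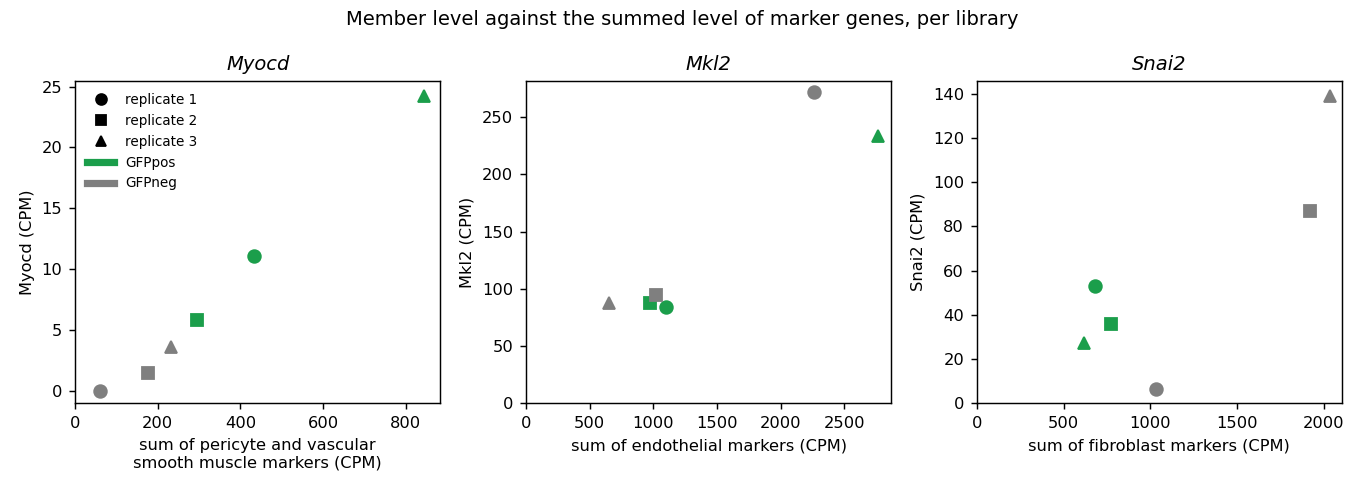
Level of Myocd, Mkl2 and Snai2 in CPM against the summed CPM of a marker list in each of the 6 libraries, with GFPpos in green and GFPneg in grey. The order of the libraries is the same for Myocd and the pericyte and vascular smooth muscle sum. On TMM scaling the libraries with the highest endothelial sums, GFPpos replicate 3 (2762 CPM) and GFPneg replicate 1 (2262 CPM), also have the highest Mkl2. For Snai2 the orders differ: GFPneg replicate 1 has the lowest Snai2 (6.56 CPM), while its fibroblast sum (1033 CPM) lies above those of the GFPpos libraries (619 to 775 CPM).

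Mkl1 (ENSMUSG00000042292, chromosome 15, 81012281 to 81190757, minus strand; now named Mrtfa) encodes MRTF-A, a broadly expressed actin-regulated coactivator of SRF that the myoepithelium of the lactating mouse gland requires. It had 80.8, 79.3 and 92.9 CPM in GFPpos replicates 1, 2 and 3, against 32.8, 76.5 and 111 CPM in the GFPneg replicates. The GFPpos values lie within the GFPneg range, and GFPneg replicate 1, at 10 counts, is the low one. The log2 fold change was 0.15 (SE 0.49, adjusted p = 1) and took the other sign without GFPneg replicate 1 (-0.14, SE 0.28). Mkl1 shares exonic sequence with Sgsm3 on the opposite strand, whose 577 counts over all libraries are few beside those of Mkl1. The profiles most like that of Mkl1 were those of Pygo2 (0.0468), Fam53b (0.0779) and Rere (0.0785).

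Mkl2 (ENSMUSG00000009569, chromosome 16, 13256481 to 13417529, plus strand; now named Mrtfb) encodes MRTF-B, which is needed for vascular smooth muscle development in mice. Its level was 84.4, 87.8 and 233 CPM in GFPpos replicates 1, 2 and 3, against 272, 94.4 and 87.9 CPM in the GFPneg replicates. GFPpos replicate 3 and GFPneg replicate 1 were high, and the other 4 libraries lay between 84.4 and 94.4 CPM. The 83 counts in GFPneg replicate 1 give an exact interval of 217 to 337 CPM, above the other GFPneg libraries on TMM scaling. That interval does not cover the scaling itself, with a TMM factor of 0.5015 in this library against 1.049 to 1.224 in the others. The pairs went in different directions, with ratios of 0.310 (0.247 to 0.393), 0.930 (0.863 to 1.00) and 2.66 (2.48 to 2.85). The log2 fold change was -0.12 (SE 0.54, adjusted p = 1) and turned positive with library size scaling (0.44) and without GFPneg replicate 1 (0.58, SE 0.42), GFPpos replicate 1 (0.14) or GFPpos replicate 2 (0.10). On this scaling the libraries high in Mkl2 were also those with the highest sum of 10 endothelial markers. The sum was 1099, 970 and 2762 CPM in GFPpos and 2262, 1024 and 653 CPM in GFPneg libraries. Pecam1, an adhesion molecule of endothelium, had 368, 324 and 981 CPM in GFPpos against 718, 242 and 176 CPM in GFPneg libraries. The sum in GFPneg replicate 1 was mostly Pecam1, Vwf (643 CPM) and Erg (344 CPM). The endothelial receptor gene Kdr had 39.8, 52.1 and 124 CPM in GFPpos against 36.1, 170 and 109 CPM in GFPneg libraries, and like Tek and Emcn, which was at 0 there, it was lowest in GFPneg replicate 1 among the GFPneg libraries. With the block in pairs 2 and 3, 5 of the 10 endothelial markers rose (Pecam1, Cdh5, Eng, Erg and Vwf), beside 3.92% of all genes called in either direction. Without the block 0 of the 10 passed in those pairs. The part of endothelial cells in the level of Mkl2 was not tested. Mob3a (0.167), Mtus1 (0.182) and Gcc2 (0.207) had the profiles most like that of Mkl2.

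Per kilobase of exon, Mkl1 and Mkl2 made up most of the coactivator RNA in both groups. Myocd made up 7.08%, 3.84% and 8.40% of the summed CPM per kilobase of the 3 coactivators in GFPpos replicates 1, 2 and 3, against 0%, 0.997% and 1.99% in the GFPneg replicates. The ratio of Mkl2 to Mkl1 on the same scale was 0.710, 0.753 and 1.71 in GFPpos libraries and 5.64, 0.839 and 0.537 in GFPneg libraries.

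**Figure D4:**
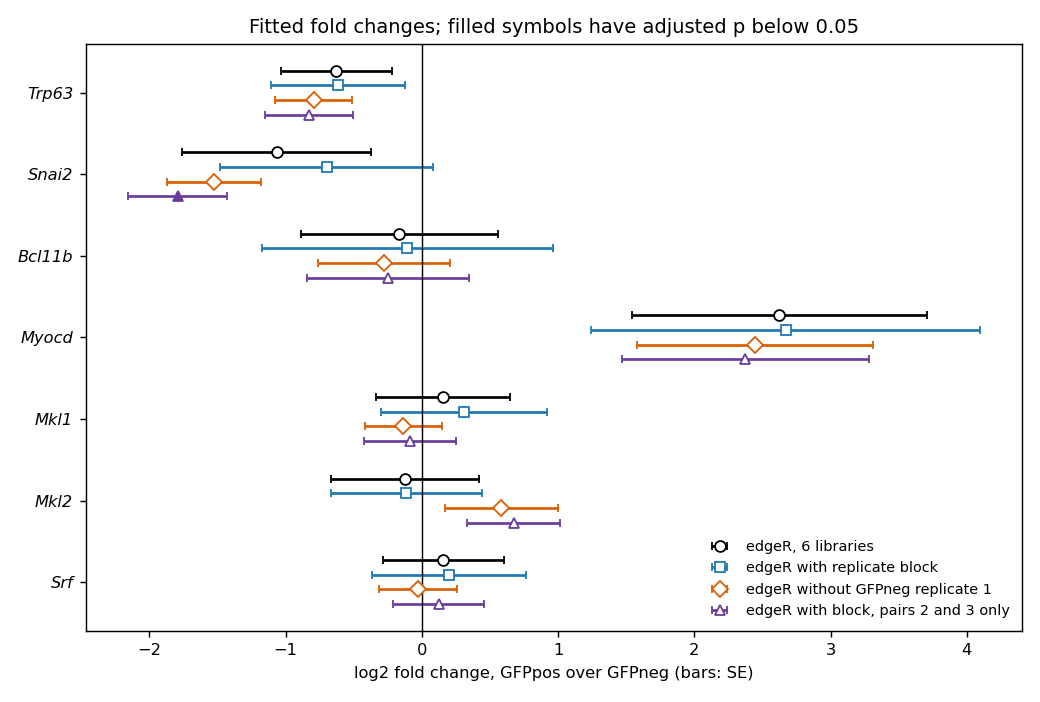
Fitted log2 fold change of each member (GFPpos over GFPneg) with its SE in 4 edgeR fits: all 6 libraries, with the replicate block, without GFPneg replicate 1, and with the block in pairs 2 and 3. The filled symbol, Snai2 in the last fit at -1.79, is the one estimate with an adjusted p below 0.05.

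Srf (ENSMUSG00000015605, chromosome 17, 46548329 to 46556175, minus strand) encodes the serum response factor itself, and its own promoter is a known SRF target. RefSeq promoter windows (GRCm38.p6, the assembly of mm10, 250 bases before to 50 after the start) matched 4 of the 7 members (Bcl11b, Mkl1, Mkl2 and Srf) with 7 windows in all. The CArG box was searched on both strands, counting a box that reads on both strands as 1, and 1.63% of 32851 windows of this length held one. Of the 7 windows of members, 1 held it, that of Srf, with a pair of boxes, CCATATAAGG at chr17:46556235-46556244 and CCATAAAAGG at chr17:46556215-46556224. Their first letters lie 82 and 62 bases before the start, 20 bases apart. Among 18 windows of 16 smooth muscle targets of SRF, those of Myl9 and Vcl held 1 box each. Among the immediate early targets Egr2 had a box in 4 of its windows, CCATATATGG in 3 that overlap and CCTTTTTTGG in a separate one, and no match in such a window says nothing about boxes elsewhere. The windows are shown because they carry the element through which SRF and the coactivators act, with the boxes in capitals, for Srf at chr17:46556113-46556412 (minus strand), Myl9 at chr2:156775214-156775513 (plus strand) and Vcl at chr14:20929148-20929447 (plus strand).
Srf: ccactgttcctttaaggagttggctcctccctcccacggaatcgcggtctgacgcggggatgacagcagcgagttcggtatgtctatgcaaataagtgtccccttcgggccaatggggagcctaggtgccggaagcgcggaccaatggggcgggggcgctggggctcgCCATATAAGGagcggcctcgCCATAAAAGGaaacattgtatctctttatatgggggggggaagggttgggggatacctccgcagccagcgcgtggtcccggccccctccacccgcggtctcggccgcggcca
Myl9: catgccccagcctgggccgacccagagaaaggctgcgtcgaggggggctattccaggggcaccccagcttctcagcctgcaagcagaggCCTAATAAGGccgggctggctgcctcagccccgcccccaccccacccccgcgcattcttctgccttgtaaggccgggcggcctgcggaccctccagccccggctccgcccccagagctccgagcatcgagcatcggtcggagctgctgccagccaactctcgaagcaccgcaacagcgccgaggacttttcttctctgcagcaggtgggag
Vcl: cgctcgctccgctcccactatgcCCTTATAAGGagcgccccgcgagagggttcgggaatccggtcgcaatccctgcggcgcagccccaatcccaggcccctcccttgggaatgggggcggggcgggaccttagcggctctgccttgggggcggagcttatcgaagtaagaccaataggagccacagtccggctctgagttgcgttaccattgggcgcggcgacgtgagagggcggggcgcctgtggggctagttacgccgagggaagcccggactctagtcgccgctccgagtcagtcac

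The 2 other motifs searched on both strands were common in windows of this length. The Snail family E-box CAGGTG was present in 20.2% of all windows, in 2 overlapping windows of Mkl2 and in none of Bcl11b, Mkl1 or Srf. The letters TGGGAA, the core recognised by the Notch effector RBPJ, were present in 25.6% of all windows, in 1 of the 2 windows of Mkl1 and 1 of the 3 windows of Mkl2. Among the p63 targets, 9 of the 16 genes were matched, and 5 of their 12 windows held CAGGTG (Krt5, Itga3, Dst and Lamb3). It was also in 4 of 18 windows of smooth muscle targets (Myl9, Lmod1, Csrp1 and Synpo2) and in 1 of 9 windows of immediate early targets (Fosb).

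Srf had 78.9, 101 and 124 CPM in GFPpos replicates 1, 2 and 3, against 59.0, 110.4 and 98.2 CPM in the GFPneg replicates. The groups overlap, and the pair ratios were 1.34 (0.841 to 2.27), 0.914 (0.852 to 0.979) and 1.26 (1.17 to 1.36). The log2 fold change was 0.16 (SE 0.44, adjusted p = 1), and it was -0.03 (SE 0.29) without GFPneg replicate 1 and -0.007 without GFPpos replicate 3. The nearest profiles were those of Zfp217 (0.0764), Ndufc2 (0.0878) and Usp4 (0.0896).

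Of 19 smooth muscle targets of SRF and its coactivators, 15 had negative and 4 positive log2 fold changes (median -0.35), and 0 passed with 6 libraries. The share of negative fold changes over all genes tested was 42.5%. The median log2 ratio of the 19 targets (CPM plus 1) was 1.00 in pair 1, -0.61 in pair 2 and -0.73 in pair 3, so that pair 1 went the opposite way. Without GFPneg replicate 1 the median fold change was -0.65. The most separated was Cnn1, which encodes the actin-binding protein calponin, at 103, 80.8 and 107 CPM in GFPpos against 216, 280 and 303 CPM in GFPneg libraries, without overlap (log2 fold change -1.46, SE 0.40, adjusted p = 0.396). Myh11, the smooth muscle myosin heavy chain, had 2072, 1587 and 2656 CPM in GFPpos against 3289, 3807 and 4393 CPM in GFPneg libraries, again without overlap (adjusted p = 0.843). On TMM scaling both genes were lower in the 3 pairs, including pair 1, where the direction depends on the TMM factor of GFPneg replicate 1. Acta2, smooth muscle actin, had 1380, 1326 and 1143 CPM in GFPpos against 367, 3642 and 2197 CPM in GFPneg libraries, and Myl9, a myosin light chain, 203, 165 and 245 CPM in GFPpos against 29.5, 397 and 343 CPM in GFPneg libraries. For both, GFPneg replicate 1 is the lowest library and the other GFPneg libraries are the highest, the arrangement seen for Snai2. Vcl, the adhesion protein vinculin, stood at 302, 285 and 318 CPM in GFPpos and 259, 421 and 390 CPM in GFPneg libraries. With the block in pairs 2 and 3, Acta2 (adjusted p = 0.0304), Actg2 (0.0217), Cnn1 (7.56e-05), Tagln (0.00194) and Smtn (0.0497) fell while Des rose. In that fit 3.92% of all genes were called in either direction. Without the block 0 of the 19 passed in those pairs. The fold changes of Myocd and of the 5 genes that fell were of opposite sign there.

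The 8 immediate early genes that SRF controls with ternary complex factors all had negative log2 fold changes (median -0.41) and 0 passed. Of all genes tested 42.5% were negative. The median log2 ratio of the 8 (CPM plus 1) was 0.48 in pair 1, -0.73 in pair 2 and -0.53 in pair 3. Without GFPneg replicate 1 their median fold change was -0.67. Ier2 had 114, 71.3 and 106 CPM in GFPpos libraries, against 348, 128 and 137 CPM in GFPneg libraries, without overlap (adjusted p = 0.921). Nr4a1, an orphan nuclear receptor, had 303, 270 and 600 CPM in GFPpos against 757, 573 and 770 CPM in GFPneg libraries, with an overlap between GFPpos replicate 3 and GFPneg replicate 2 (adjusted p = 0.988). Fosb, a subunit of AP-1, had 776, 733 and 1465 CPM in GFPpos libraries, against 1348, 1438 and 2377 CPM in GFPneg libraries (adjusted p = 1).

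Of 15 partners of SRF and regulators of the MRTF proteins, 10 were negative and 5 positive (median -0.18), and 0 passed, where 42.5% of all genes were negative. Their median log2 ratio (CPM plus 1) was 0.93 in pair 1, -0.28 in pair 2 and -0.38 in pair 3. Klf4, a repressor of Myocd in smooth muscle, had 121, 98.6 and 159 CPM in GFPpos against 190, 228 and 325 CPM in GFPneg libraries, without overlap (log2 fold change -0.98, SE 0.41, adjusted p = 0.843), and it fell with the block in pairs 2 and 3 (adjusted p = 0.0215). The ternary complex factor gene Elk3 had 61.3, 45.1 and 78.2 CPM in GFPpos against 26.2, 40.9 and 45.8 CPM in GFPneg libraries, higher in each pair (adjusted p = 1). Actb, the actin whose monomer retains the MRTF proteins, had 1706, 1953 and 2133 CPM in GFPpos against 515, 2363 and 1628 CPM in GFPneg libraries, and the groups overlap.

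**Figure D5:**
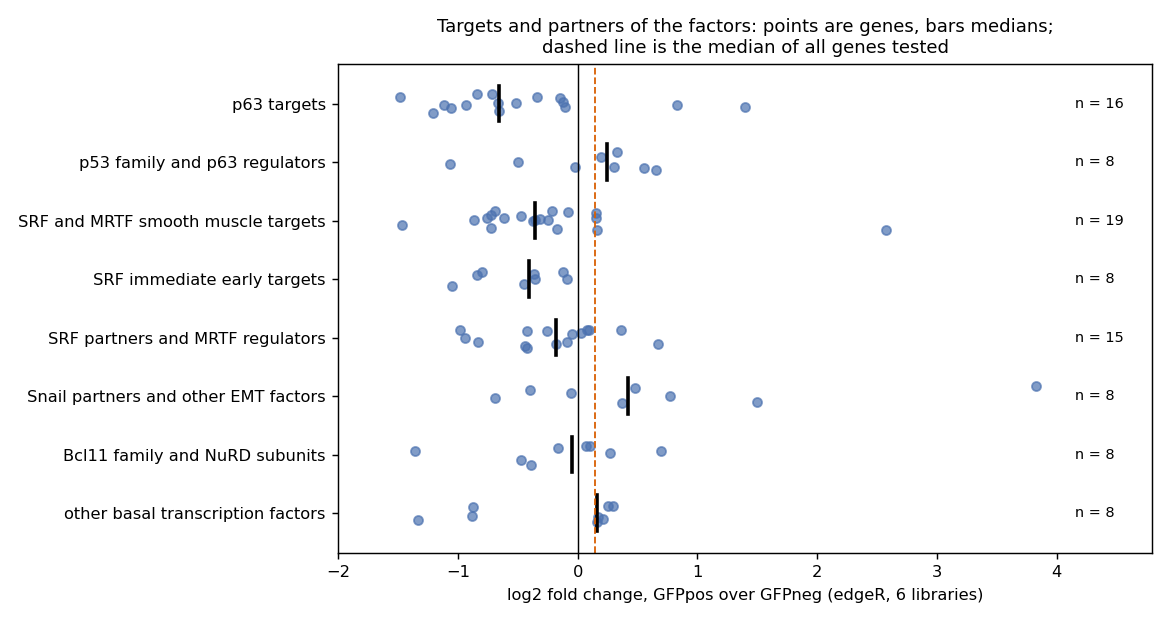
Log2 fold change (GFPpos over GFPneg, edgeR with 6 libraries) of the tested genes of the 8 lists of targets and partners, one point per gene, with the list median as a black bar and the median of all genes (0.15) as a dashed line. The medians of p63 targets (-0.66), smooth muscle targets (-0.35) and immediate early targets (-0.41) lie below that line, and no gene of these 8 lists passed the test. In pair 1 alone the median log2 ratio (CPM plus 1) of the same targets was above 0, at 0.07, 1.00 and 0.48.

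The order of the members' levels was set per kilobase of exon, as the mean CPM per kilobase of merged exons. In GFPpos cells Srf was highest at 35.0 ± 7.78, followed by Snai2 (19.2 ± 6.42), Trp63 (18.7 ± 4.66), Mkl2 (15.0 ± 9.47) and Mkl1 (13.8 ± 1.22), and then by Myocd (2.13 ± 1.48) and Bcl11b (1.96 ± 0.201) (SD, n = 3). The steps from Srf to Snai2 and from Mkl1 to Myocd exceed the SD of either neighbour, and the others do not. In GFPneg cells the order was Snai2 (38.4 ± 33.0), Srf (30.8 ± 9.28), Trp63 (28.7 ± 7.90), Mkl2 (16.8 ± 11.6), Mkl1 (12.04 ± 6.44), Bcl11b (2.14 ± 0.689) and Myocd (0.266 ± 0.285). There the steps from Trp63 to Mkl2, from Mkl1 to Bcl11b and from Bcl11b to Myocd exceed the SD of either neighbour. The order of Myocd and Bcl11b in GFPpos cells lies within the spread of Myocd, which was above Bcl11b per kilobase in GFPpos replicate 3 (3.77 against 2.16) and below it in the other libraries. The order of Srf and Snai2 in GFPneg cells likewise lies within the spread of Snai2.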

How the data were processed

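For each of 6 libraries of total RNA the authors deposited raw counts for 51826 symbols, besides 5 summary rows that were left out. The tools named, per the submitters' processing notes, are cutadapt, FastQC, HTSeq and TopHat2, and the build is mm10. For versions, the strand setting and the annotation release the entry is not given in the sources used here. Overlapping and antisense genes are therefore uncertain. Reads assigned to no feature made up 28.8% to 66.4% of the rows' total and ambiguous reads 0.390% to 2.07%.

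In R 4.3.3 the counts were fitted with edgeR 4.0.16, using TMM factors, filterByExpr, the quasi-likelihood F test and group as the only term, with Benjamini-Hochberg adjustment over the 13873 genes that passed, among them the 7 members. The SE was the unshrunk log2 fold change divided by the square root of F. DESeq2 1.42.0 and limma 3.58.1 gave alternatives. Scripts were tested on simulated data. Intervals are exact and cover counting error only. Positions and merged exon lengths are from GENCODE M21 on mm10, in which Mkl1 and Mkl2 were matched as Mrtfa and Mrtfb through RefSeq synonyms.

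Same-numbered libraries came from 1 pool of mice, which is the pairing. The deviations of paired libraries from their group means correlated at -0.0361, 0.122 and -0.00126. Mice were pooled, so that p-values of the fits without the block measure the spread between libraries of different pools, and not between mice. That spread includes the low depth of GFPneg replicate 1 where it was kept. With the block, differences that both libraries of a pair share are taken out.

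The members, lists and alternatives were chosen with earlier results of these data known. Besides the members, the text names up to 3 genes of each list with the smallest p and at least 5 CPM in the higher group, fixed marker genes, and for each member with a mean of at least 10 CPM the 3 genes nearest in profile. Results for some list genes are not reported here. List genes outside that rule were chosen after their values were seen.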

Additional observations from a re-analysis of the deposited data

How the results depend on the processing

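Trp63 and Snai2 kept negative and Myocd positive log2 fold changes in all 18 alternative fits, with ranges, over the 9 leave-out fits (1 library or 1 pair removed), of -0.82 to -0.42, -1.81 to -0.17 and 1.97 to 3.44. The sign of the log2 fold change differed between fits for the other members, although that of Bcl11b relative to the median of all genes was negative in each fit. Over those 9 fits Bcl11b ranged from -0.34 to 0.22, Mkl1 from -0.14 to 0.57, Mkl2 from -1.06 to 0.84 and Srf from -0.0257 to 0.351. Library size scaling gave 0.0118 for Bcl11b and 0.44 for Mkl2. It also moved the median of all genes to 0.31, against 0.15 with TMM, and relative to that median Bcl11b stood at -0.30 and Mkl2 at 0.14. Limma-voom gave -0.000132 for Mkl1 and 0.37 for Mkl2, and the block in pairs 2 and 3 gave -0.085 for Mkl1, 0.67 for Mkl2 and -1.79 for Snai2. That last fit was the one alternative in which a member was called (1, Snai2). The replicate block with 3 pairs changed no member's call, and the leave-out fits called 0. The cause of these changes was not tested.

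Genes called higher numbered 8 with 6 libraries, 43 with the replicate block, 5 with library size scaling, 65 with no low count filter, 52 with DESeq2, 77 with DESeq2 and the block, 54 with limma-voom, 386 with the block in pairs 2 and 3, and 2 to 63 when a library or pair was left out. Genes called lower numbered 1, and 18 with the block, 236 with no low count filter, 104 with DESeq2, 90 with DESeq2 and the block, 24 with limma-voom, 216 with the block in pairs 2 and 3, and 1 to 68 when a library or pair was left out. Single libraries that moved these counts most were GFPneg replicate 1 (63 higher and 29 lower without it), GFPneg replicate 2 (3 and 3), GFPneg replicate 3 (8 and 11), GFPpos replicate 2 (7 and 4) and GFPpos replicate 3 (2 and 1), and without pair 3 the counts were 12 and 68. Of the list genes of targets and partners 0 were called with 6 libraries, 1 with no low count filter, 4 with limma-voom, 14 with the block in pairs 2 and 3 (13 lower and Des higher), and 0 to 2 when a library or pair was left out, the 2 being Col17a1 and Cnn1 without GFPneg replicate 1. At 1 count per 3.28 CPM, GFPneg replicate 1 limits what pair 1 can show for Snai2, Bcl11b and Myocd.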
